A study of Mus musculus with 22 samples.

Results

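The 9 genes described here encode enzymes that break down cyclic AMP (cAMP): Pde3a, Pde3b, Pde4a, Pde4b, Pde4c, Pde4d, Pde7a, Pde8a and Pde10a. They were taken by gene symbol, each matched 1 line of the deposited table, and they are 9 of 54514 entries. The 5 that carry the results are listed there as ENSMUSG00000032177 (Pde4a), ENSMUSG00000028525 (Pde4b), ENSMUSG00000031842 (Pde4c), ENSMUSG00000021699 (Pde4d) and ENSMUSG00000069094 (Pde7a). The material was RNA of mpkCCD cells, an immortalised line from the cortical collecting duct of mouse kidney, all from a single secondary clone of that line. The cells were grown on permeable supports and then kept in a serum-free medium with 50 nM dexamethasone, selenite and transferrin, which every group shared. Wild-type (WT) cells without the reporter were left without dDAVP (3 libraries, labelled control and no treatment) or given dDAVP (3 libraries). dDAVP (desmopressin) is a synthetic vasopressin that acts on the V2 receptor. The GFP reporter lines C1, C11, C43 and C50, called clones below, were all given dDAVP, and each was split by GFP into a negative and a positive fraction of 2 libraries. That makes 22 libraries in 10 groups. The series title ties the reporter to aquaporin-2 (Aqp2), the vasopressin-regulated water channel. The sequence that drives GFP is not given in the sources used here, and each clone is a line of its own. The labels name 0.1 or 1 nM dDAVP for 24 or 48 h without assigning them to libraries. Nothing in the labels says that replicates were separate cultures, so p-values measure the spread between these libraries, which may be technical.

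Vasopressin signals in collecting duct principal cells through the V2 receptor, Gs and adenylyl cyclase to raise cAMP, which activates protein kinase A (PKA) and leads to insertion and synthesis of Aqp2. Phosphodiesterases end the signal by hydrolysing cAMP to AMP. The PDE4 enzymes (Pde4a to Pde4d) and PDE7 and PDE8 prefer cAMP, PDE3 is inhibited by cGMP, and PDE10A takes both nucleotides. PDE4 enzymes are the targets of rolipram, their long forms are activated by PKA, and transcription of Pde4b and Pde4d short forms is known to be raised by cAMP in other cells.

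Expression is given as the authors' TPM, a transcript abundance corrected for transcript length, so that levels of different genes can be compared. TPM keep no sequencing depth, which is therefore unknown. Libraries held 12293 to 14341 genes at 1 TPM or more, and the number of genes above 0 TPM fell into a set of 10 libraries at 17177 to 20250 and a set of 12 at 23135 to 31292, each with members in both WT groups and both GFP fractions. GFP-negative replicate 1 of C50 stood apart, with 8.32% of TPM in ribosomal protein genes against 3.85% to 6.12% in the other 21 libraries, and the changes of the members within C50 are also given without it. Of 11 principal-cell markers, 9 had a mean of at least 1 TPM, while Scnn1b reached at most 0.82 and Elf5 0.31 TPM. Of 8 intercalated-cell markers 3 did (Atp6v1b1, Rhcg and Slc4a9), and the defining Foxi1, Slc4a1 and Slc26a4 stayed at or below 0.10, 0.48 and 0.34 TPM. Rhcg, an ammonia transporter, was 79.1 to 110.8 TPM in WT libraries and 0 to 2.04 TPM in clone libraries. Of 5 proximal tubule markers, Lrp2 was 0.94 to 15.9 TPM, and Cubn, Slc34a1, Slc5a2 and Slc22a6 were at most 0.69 TPM. Thick limb, fibroblast and endothelial markers were at most 1.13 TPM in any library, while the macrophage marker Cd68 was 2.86 to 12.4 TPM with Ptprc and Lyz2 at most 1.87 and 0.52 TPM.

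The family was carried by 5 genes. Pde7a, Pde4c, Pde4b, Pde4a and Pde4d together made up at least 98.5% of the summed TPM of the 9 genes in every library. Pde7a was the most abundant in WT cells without dDAVP, at 112, 97.3 and 95.2 TPM, followed by Pde4c at 63.2, 46.9 and 47.2 TPM. Pde4b, Pde4a and Pde4d lay far lower in these cells, with group means of 5.98, 5.61 and 4.69 TPM. The other 4 members were low. Pde8a was at most 0.08 TPM, Pde3a at most 0.21 TPM and Pde3b at most 0.39 TPM in all 22 libraries, and they were listed at 0 in 8, 9 and 8 of these. Pde10a, prominent in striatal neurons, ranged from 0 to 2.25 TPM with a mean below 1. These 4 did not pass the filter of a mean of at least 1 TPM and were not tested with the others. With every gene above 0 TPM admitted, none of the 4 passed in limma, for example Pde10a between GFP fractions at 0.43 on the log2 scale (adjusted p 0.426) and Pde8a at 0.01 (adjusted p 0.815).

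**Figure D1:**
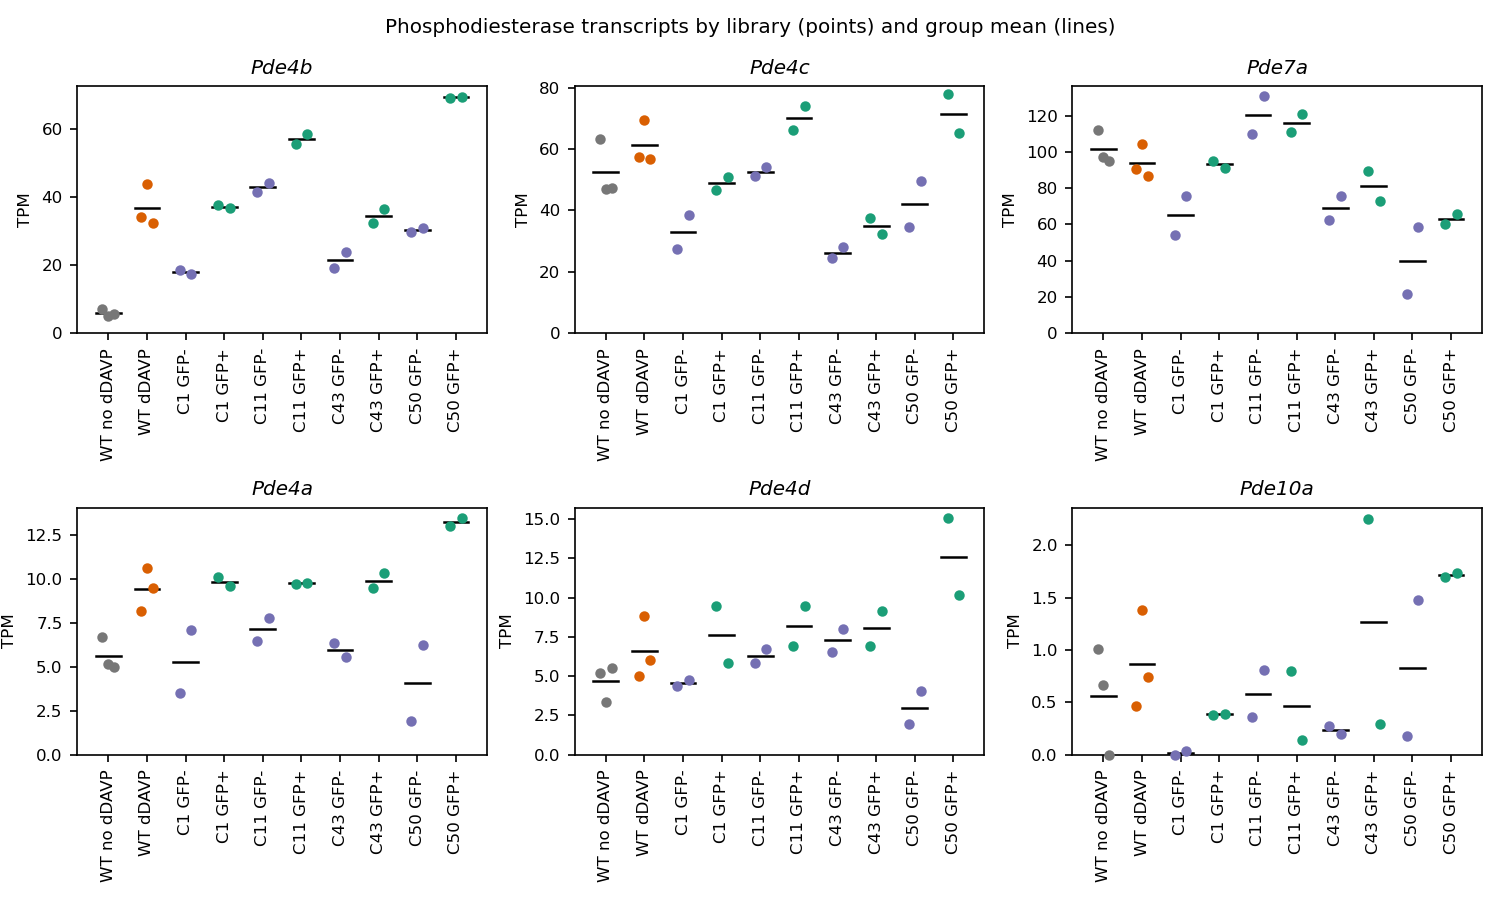
TPM of 6 phosphodiesterase genes in each of 22 libraries (points, with the group mean as a line) over the 10 groups, each panel on its own linear axis from 0; grey is WT without dDAVP, orange WT with dDAVP, purple GFP-negative and green GFP-positive. Pde4b in WT cells without dDAVP (5.11 to 7.20 TPM) lies below every other library.

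The comparison of WT cells asks which phosphodiesterase transcripts change with dDAVP. Pde4b rose most. It was 7.20, 5.11 and 5.63 TPM without dDAVP and 34.1, 43.9 and 32.3 TPM with it. The groups lay far apart, with the lowest dDAVP library above the highest library without dDAVP. The means, 5.98 ± 1.09 and 36.8 ± 6.26 TPM (SD, n = 3 each), differed 6.15-fold. Of all genes, 7.12% were higher with dDAVP without overlap. All changes below are differences of mean log2(TPM + 1), which understate changes of low genes. For Pde4b it came to 2.44 (SE 0.16, limma adjusted p 0.00034), and it was called in all 15 alternative analyses of these cells. In the 4 WT libraries with more genes detected it was 2.45 (limma adjusted p 0.02).

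Pde4a, which encodes a cAMP-specific PDE4 enzyme, also rose, on weaker evidence. It was 6.68, 5.16 and 5.00 TPM without dDAVP and 8.15, 10.6 and 9.50 TPM with it, again with no overlap. It changed by 0.66 (SE 0.157, limma adjusted p 0.0455). That call was lost when any 1 of the 6 libraries was left out, with changes of 0.58 to 0.77, and in 10 of 15 alternatives in all, with adjusted p up to 0.201 in the libraries with more genes detected.

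The other 3 tested members did not pass. Pde4d, whose product is anchored near Aqp2 vesicles in principal cells, was 5.18, 3.38 and 5.51 TPM without and 5.01, 8.84 and 6.02 TPM with dDAVP, and the groups overlapped. Pde4c was 57.5, 69.5 and 56.7 TPM with dDAVP, overlapping its levels without. Their changes were 0.41 and 0.23 (limma adjusted p 0.275 and 0.305). Pde7a, a cAMP-specific enzyme that rolipram does not inhibit, was 90.8, 104 and 86.9 TPM with dDAVP. Its change was -0.11 (limma adjusted p 0.469) and turned to 0.06 with median-ratio scaling. Of the 5 tested members, 2 were called, both higher, where 2.37% of 13494 genes were called higher (8.88% in either direction). Of all calls 26.7% were higher as deposited and 59.5% after median-ratio scaling. The median change over all genes was -0.16 as deposited and 0.00 after median-ratio scaling. Relative to that median the changes were 2.59 in Pde4b, 0.82 in Pde4a, 0.57 in Pde4d, 0.38 in Pde4c and 0.05 in Pde7a.

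The make-up of the family differed accordingly. Pde4b took 3.48% ± 0.237 of the family's TPM without dDAVP and 17.5% ± 0.819 with it (SD, n = 3 each). The share of Pde7a was 59.5% ± 2.11 without and 45.0% ± 1.33 with dDAVP, and that of the 4 PDE4 genes together was 40.1% ± 1.93 and 54.5% ± 1.14. The summed level was 159 to 196 TPM without and 193 to 239 TPM with dDAVP, ranges that overlap.

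**Figure D2:**
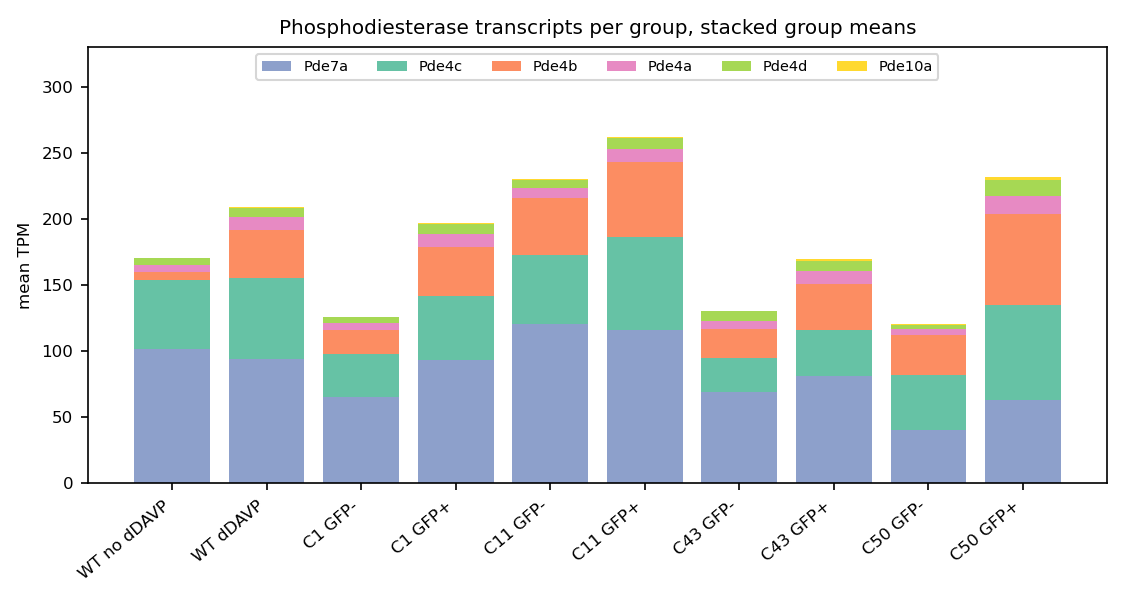
Group means of TPM (vertical axis, linear from 0) stacked for 6 phosphodiesterase genes in the 10 groups; Pde3a, Pde3b and Pde8a are too low to show. The Pde4b segment is 5.98 TPM in WT cells without dDAVP and 36.8 TPM with it, and the Pde7a segment is smallest in C50.

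The bases before the annotated starts of the members were searched for the cAMP response element (CRE), the DNA element bound by CREB and CREM. RefSeq promoter windows of GRCm38.p6 were given for 6 of the 9 members (Pde4a, Pde4b, Pde4c, Pde4d, Pde8a and Pde10a), 12 windows in all, and the 250 bases upstream of each start were read on both strands. The full CRE, TGACGTCA, was in 0 of the 12 windows and in 1.55% of 32851 windows of all genes. Every full CRE contains the core TGACG, read as CGTCA on the opposite strand, and that core was in 3 of the 12 and in 17.8% of all. The 3 were the first of 4 Pde4b windows, the second of 3 Pde4a windows and the Pde8a window. The windows of Pde4b and Pde4a with the core are shown because those genes rose in WT cells, and that of Pde4c because it is the abundant PDE4 gene without a called change. Capitals mark the core, as it reads on the printed strand, which starts 34 bases before the start in Pde4b and 50 bases before it in Pde4a. All 3 are on the plus strand, at chr4:102421305-102421554, chr9:21183851-21184100 and chr8:70723814-70724063.
Pde4b, start 1: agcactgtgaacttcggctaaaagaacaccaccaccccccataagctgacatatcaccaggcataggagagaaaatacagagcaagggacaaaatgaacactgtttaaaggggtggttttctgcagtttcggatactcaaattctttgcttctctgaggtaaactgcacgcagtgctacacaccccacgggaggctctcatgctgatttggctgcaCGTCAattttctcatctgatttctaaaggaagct
Pde4a, start 2: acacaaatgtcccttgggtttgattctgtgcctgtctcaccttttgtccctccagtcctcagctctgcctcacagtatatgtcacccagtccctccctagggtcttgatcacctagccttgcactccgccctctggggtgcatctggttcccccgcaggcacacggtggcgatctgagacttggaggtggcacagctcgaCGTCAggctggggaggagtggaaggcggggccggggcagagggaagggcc
Pde4c, start 1: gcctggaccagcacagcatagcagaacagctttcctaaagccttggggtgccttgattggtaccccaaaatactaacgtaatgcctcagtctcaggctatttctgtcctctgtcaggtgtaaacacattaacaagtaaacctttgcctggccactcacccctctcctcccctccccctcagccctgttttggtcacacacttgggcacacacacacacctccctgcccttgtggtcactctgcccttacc
A match is a description of letters and not evidence of binding. TPM are per gene, so the start used in these cells and the long and short PDE4 forms cannot be told apart here.

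The comparison of GFP fractions asks how the same transcripts differ between GFP-positive and GFP-negative cells of a clone under dDAVP. All 4 PDE4 genes were higher in GFP-positive cells, Pde4d on weaker evidence. With the clone as a covariate the change was 0.81 in Pde4b, 0.88 in Pde4a, 0.54 in Pde4c and 0.71 in Pde4d (limma adjusted p 2.14e-05, 0.00333, 0.000636 and 0.0197), with standard errors of 0.098, 0.202, 0.098 and 0.218. Pde7a changed by 0.38 (limma adjusted p 0.108), short of the threshold, but passed with median-ratio scaling (0.46, adjusted p 0.0121) and quantile normalization (0.43, adjusted p 0.0157). Thus 4 of 5 tested members were called, all higher, where 12.1% of 13113 genes were called higher and 35.3% in either direction. Pde4a and Pde4b were called higher here and with dDAVP in WT cells, as were 1.86% of genes tested in both. In the libraries with fewer genes detected, where both fractions were present in 3 clones, the changes of Pde4b, Pde4a and Pde4c were 0.95, 1.27 and 0.61 without passing (limma adjusted p 0.0585, 0.143 and 0.213). Without the C50 library with the high ribosomal protein share the changes were 0.77 in Pde4b, 0.70 in Pde4a, 0.47 in Pde4c and 0.54 in Pde4d, and that of Pde7a was 0.21 (limma adjusted p 0.0904). Among the intercalated-cell markers Atp6v1b1 was also higher, by 0.81 (limma adjusted p 0.00899), as was the proximal tubule marker Lrp2, by 0.56 (limma adjusted p 0.00525). Of 9 tested principal-cell markers 6 were higher and 1 was lower, Aqp3, by -0.64 (limma adjusted p 0.0195). The part of these markers in the result was not tested. In bulk RNA, a different share of cells that express a gene and a different amount of RNA per cell cannot be told apart.

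In each clone the 2 fractions did not overlap in Pde4b, which was higher in the GFP-positive one. Such separation was seen in 19.8%, 18.9%, 18.3% and 27.8% of genes in C1, C11, C43 and C50. In C1 it was 18.5 and 17.5 TPM in GFP-negative and 37.6 and 36.7 TPM in GFP-positive libraries. In C11 it was 41.5 and 44.2 TPM against 55.5 and 58.6 TPM. The GFP-positive means were 2.07 times the negative ones in C1 and 1.33 times in C11. In C43 Pde4b was 19.2 and 23.9 TPM in GFP-negative and 32.3 and 36.5 TPM in GFP-positive libraries. In C50 it was 29.7 and 31.0 TPM against 69.1 and 69.3 TPM, the highest of any group. The C1, C43 and C50 changes (1.01, 0.66 and 1.17) passed (limma adjusted p 0.000524, 0.00441 and 7.21e-05), while C11 gave 0.40 (adjusted p 0.0736). The C43 call was lost without GFP-negative replicate 1 (0.50, adjusted p 0.0595). In C11 Pde4b passed after median-ratio scaling (0.55, adjusted p 0.0456).

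Pde4a and Pde4c also showed no overlap between fractions in any clone. For Pde4a, the C1, C11, C43 and C50 GFP-negative libraries were 3.52 and 7.07, 6.49 and 7.79, 6.34 and 5.56, and 1.91 and 6.23 TPM. GFP-positive libraries were 10.1 and 9.59, 9.72 and 9.77, 9.46 and 10.3, and 13.0 and 13.5 TPM in the same order. The GFP-positive libraries of C1, C11 and C43 thus lay within 9.46 to 10.3 TPM, close to the WT dDAVP mean of 9.43 ± 1.25 TPM (SD, n = 3). For Pde4c, the GFP-negative libraries of these clones were 27.5 and 38.6, 51.1 and 54.2, 24.4 and 27.9, and 34.5 and 49.5 TPM. GFP-positive libraries were 46.7 and 50.9, 66.4 and 74.1, 37.4 and 32.2, and 77.9 and 65.1 TPM. Higher levels in GFP-positive cells with no overlap in all 4 clones were shared by Pde4a, Pde4b and Pde4c, and were seen in 6.72% of 13113 genes.

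Pde4d differed most in C50. Its GFP-negative and GFP-positive libraries there were 1.98 and 4.03 TPM against 15.1 and 10.2 TPM, a ratio of means of 4.20, or 3.13 without the library with the high ribosomal protein share. In C1 they were 4.39 and 4.77 against 9.45 and 5.83 TPM, and in C11 5.82 and 6.73 against 6.95 and 9.45 TPM. In C43 the fractions overlapped, at 6.57 and 8.02 against 6.95 and 9.12 TPM, and the change of 0.12 there turned to -0.01 or -0.06 without a single C43 library. Over the clones the Pde4d change was 0.35 (adjusted p 0.0667) without clone C50 and 0.75 (adjusted p 0.0645) without clone C1. The call was also lost with clone means as replicates (adjusted p 0.119) and with all genes above 0 TPM admitted (adjusted p 0.0608), each at the same change of 0.71. Pde4d changes in the libraries with more and with fewer genes detected were 0.42 and 1.14 (adjusted p 0.216 and 0.198).

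Pde7a was not separated by GFP in 2 of the 4 clones. GFP-negative and GFP-positive libraries were 54.2 and 75.8 against 95.2 and 91.0 TPM in C1, and 109.9 and 131 against 111 and 121 TPM in C11. In C43 they were 62.5 and 75.6 against 89.6 and 72.9 TPM. In C50 they were 21.4 and 58.7 against 60.5 and 65.8 TPM, where the low value belongs to the GFP-negative library with the high ribosomal protein share. The C11 change was -0.05 and turned to 0.10 with median-ratio scaling.

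Within single clones 6 of 20 combinations of member and clone were called, all higher in GFP-positive cells. They were Pde4b in C1, C43 and C50, and Pde4a, Pde4c and Pde4d in C50. With median-ratio scaling 10 were called and with quantile normalization 11. Calls over all genes and the 4 clones numbered 7877 and 8566 there, beside 7608 in the main analysis. In the main analysis the shares of all genes called higher in C1, C11, C43 and C50 were 2.31%, 2.23%, 4.29% and 12.8%. Without GFP-negative replicate 1 of C50, the C50 changes were 0.98 in Pde4a, 1.14 in Pde4b, 1.41 in Pde4d and 0.52 in Pde4c (limma adjusted p 0.0272, 0.000214, 0.00797 and 0.0818), against 1.64, 1.17, 1.79 and 0.77 with it. The Pde7a change in C50 went from 0.81 to 0.10 (adjusted p 0.103 and 0.777). The summed intercalated-cell markers in C50 were 22.02 to 32.1 TPM in GFP-negative and 72.4 to 96.7 TPM in GFP-positive libraries. They also separated in C1 (58.2 to 71.9 against 98.2 to 112.7 TPM) and overlapped in C11 and C43. Over the clone libraries 2 of the 8 genes had a mean of 1 TPM or more (Atp6v1b1 and Slc4a9). The part of these markers in the result was not tested.

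**Figure D3:**
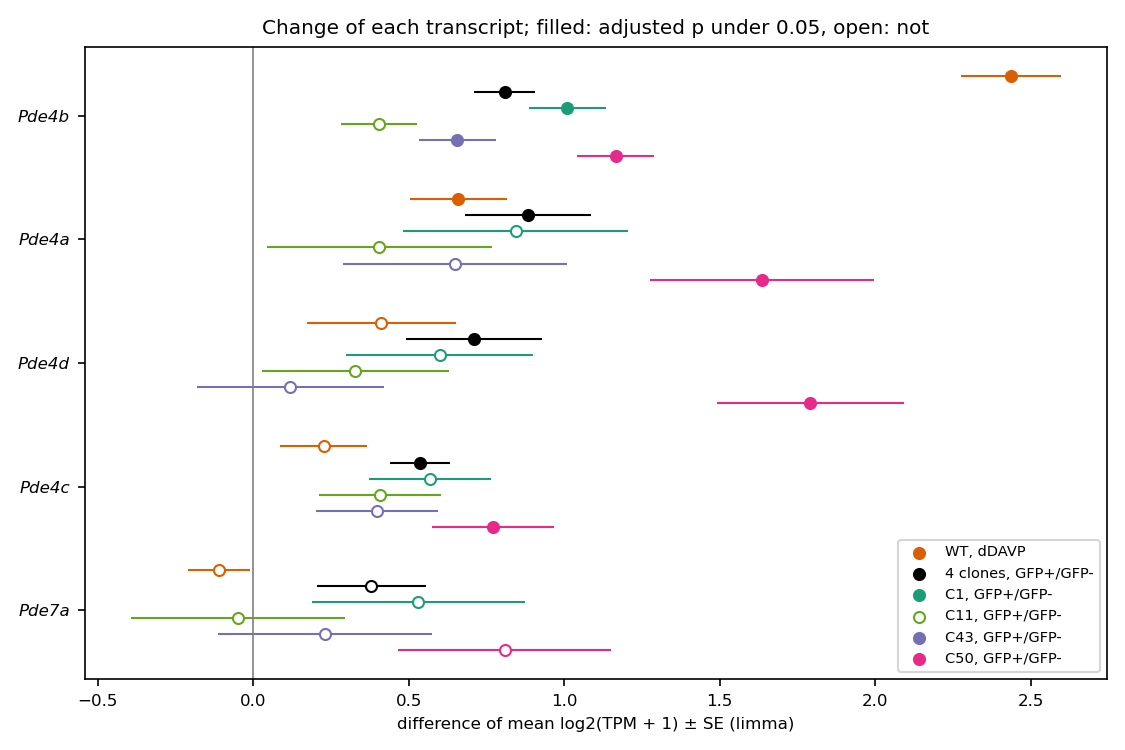
Difference of mean log2(TPM + 1) with its limma standard error (horizontal axis) for 5 genes, in WT cells with against without dDAVP, between GFP fractions over the 4 clones, and within each clone; filled points had an adjusted p under 0.05 and open points did not. Pde4b with dDAVP (2.44) is the largest change, and the C50 points lie to the right for Pde4a (1.64) and Pde4d (1.79).

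The size of the fraction difference was compared between clones by an interaction F-test in limma, which called 0 of the 5 members (0.869% of all genes). The lowest p-values before adjustment were those of Pde4b (p 0.00457, adjusted p 0.164) and Pde4d (p 0.00996, adjusted p 0.222), and neither passed. Calls in some clones and not in others are therefore not shown to differ between clones. When GFP-negative replicate 2 of C50 was left out, so that the library with the high ribosomal protein share stood alone for its group, 4 of 5 were called and 5038 genes in all.

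The clones themselves differed in the level of 3 members whatever the fraction. A limma F-test of the clone means called Pde4b (adjusted p 1.95e-05), Pde4c (0.000914) and Pde7a (0.0113), where 31.6% of genes were called. Pde4a (adjusted p 0.861) and Pde4d (0.534) were not called. Pde4b ranged 2.39-fold between the lowest and highest clone mean in GFP-negative cells and 2.01-fold in GFP-positive cells. Pde4c ranged 2.01-fold and 2.05-fold, lowest in C43 in both fractions. Pde7a ranged 3.01-fold and 1.84-fold, lowest in C50 and highest in C11 in both fractions, and without GFP-negative replicate 1 of C50 the first was 2.05-fold. C50 therefore had the family with the largest PDE4 share, 68.0% ± 11.2 in GFP-negative and 71.9% ± 2.69 in GFP-positive cells (SD, n = 2 each), against 46.8% to 55.5% as group means of the other clones. Without the GFP-negative library of C50 with the high ribosomal protein share that value was 60.0%.

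Ordered by group mean, Pde4b ran from WT without dDAVP (5.98 TPM) through GFP-negative C1 (18.0), C43 (21.6) and C50 (30.3), GFP-positive C43 (34.4), WT with dDAVP (36.8), GFP-positive C1 (37.1), GFP-negative C11 (42.9) and GFP-positive C11 (57.1) to GFP-positive C50 (69.2). Of the neighbours in that order, GFP-positive C43, WT with dDAVP and GFP-positive C1 overlapped, and the others did not. GFP-negative C11 thus lay above the GFP-positive fractions of C1 and C43. For Pde4c 8 of 9 neighbouring pairs overlapped, and for Pde7a 7 of 9. For Pde4a GFP-positive C50 stood alone at the top, and for Pde4d both the top (GFP-positive C50) and the bottom (GFP-negative C50) were groups of the same clone.

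Pde4b and Aqp2 were not ordered alike. In GFP-negative C1 cells Aqp2 was 69.5 ± 4.29 TPM (SD, n = 2), within the range of WT cells without dDAVP (64.1 to 74.9 TPM), while Pde4b at 17.5 and 18.5 TPM was 3.00 times their mean, and 16.1% of genes had both of these libraries above all 3 WT libraries. All 8 GFP-negative libraries lay above all 3 WT libraries without dDAVP for Pde4b, as for 2.14% of 13302 genes, and for no other member. Clone, reporter, separation by GFP and dDAVP differ together in that comparison and cannot be told apart, and it was not tested. Rhcg also differed there, with no clone library above 2.04 TPM. Aqp2 means of GFP-negative cells spanned 23.4-fold between clones, from C1 to C43, while Pde4b was highest in C11 and spanned 2.39-fold. Over the 8 clone groups the Pearson r of mean log2(TPM + 1) between Pde4b and Aqp2 was 0.566, and over all 10 groups it was 0.729. These correlations describe groups that share clones and have unknown depth, and carry no test.

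**Figure D4:**
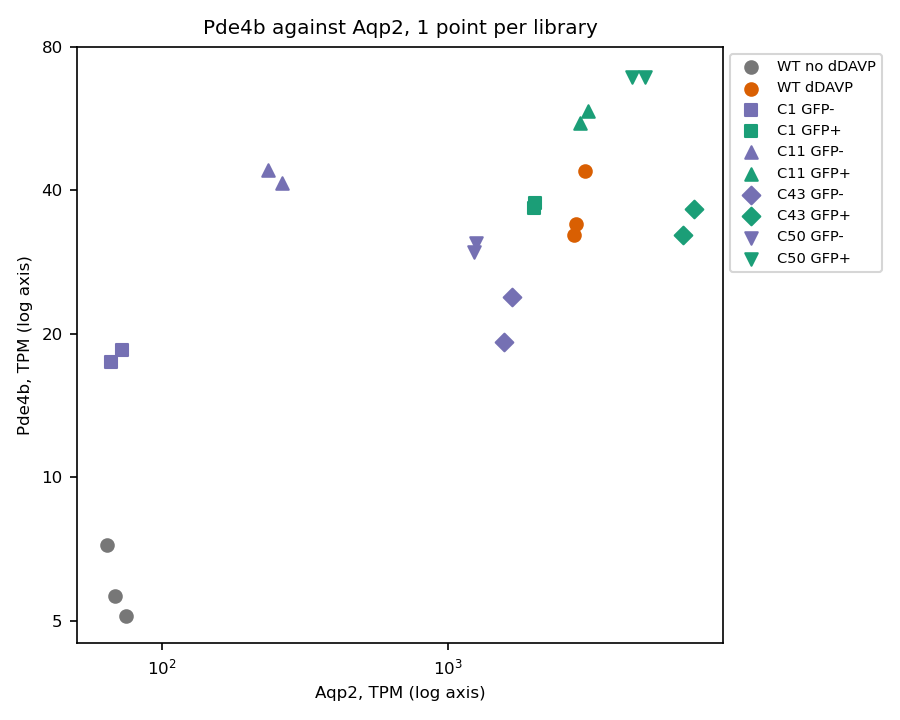
Pde4b against Aqp2 in TPM, both on log axes, 1 point per library with the clone as marker shape and the group as colour. GFP-negative C1 libraries share the Aqp2 level of WT cells without dDAVP (64.1 to 74.9 TPM) but lie at 17.5 and 18.5 TPM of Pde4b, and GFP-negative C11 lies above both GFP-positive C43 libraries.

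Members also differed in which of them ran together. Over the 10 group means Pde4a and Pde4d had the closest patterns (Pearson r 0.924). Pde4b and Pde4c had r 0.438 over the 10 groups and 0.927 over the 8 clone groups, so that the WT groups, where Pde4b rose and Pde4c was not called, set them apart. Pde4b and Pde7a had r 0.018. Among 9596 genes with a mean of at least 5 TPM, those with patterns most like Pde4b over the 10 groups included Selenbp1 (r 0.944) and Baiap2l2 (0.911). For Pde4a they were M6pr (0.966), Dnajb4 (0.964) and Arhgef37 (0.961), and for Pde4c Rhob (0.959), Fntb (0.945) and Foxo3 (0.938). For Pde4d they were Nfe2l1 (0.955), Slc35g1 (0.945) and Arntl (0.939), and for Pde7a Hlcs (0.968), Arhgef16 (0.955) and Ppil2 (0.950). These values are a description over 10 groups, with no test.

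Pde10a was too low to be tested with the others but varied between libraries. It was 0 and 0.04 TPM in GFP-negative and 0.38 and 0.39 TPM in GFP-positive C1 libraries. In C50 it was 0.18 and 1.48 TPM against 1.70 and 1.74 TPM. The fractions did not overlap in these 2 clones or in C43 (0.27 and 0.20 against 2.25 and 0.29 TPM), and overlapped in C11. The C43 separation rests on 0.27 against 0.29 TPM. Of genes with a mean of at least 1 TPM, which Pde10a did not reach, 19.8%, 18.3% and 27.8% separated this way in C1, C43 and C50. The WT groups overlapped, at 0 to 1.01 TPM without and 0.47 to 1.38 TPM with dDAVP.

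Most of the other phosphodiesterase genes did not reach the filter of a mean of at least 1 TPM, and their levels are not given here. Of 15, 2 were tested in WT cells and neither passed (limma). Pde5a, which hydrolyses cGMP, was 1.54 TPM without and 0.80 TPM with dDAVP as means (adjusted p 0.24). Pde6d, which encodes a chaperone of lipid-modified proteins rather than a catalytic subunit, changed by -0.14 (adjusted p 0.473), turning to 0.03 with median-ratio scaling. Pde6d was the single one tested between fractions and fell by 0.42 (adjusted p 0.000388) from 67.5 to 50.3 TPM as means of 8 libraries. That call was lost in 2 of 31 alternatives (adjusted p up to 0.161).

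Of 30 genes of cAMP production, effectors and efflux, 16 were tested in WT cells, of which 2 rose and 1 fell in limma, and 15 between fractions, of which 4 rose and 4 fell. Of all genes 8.88% and 35.3% were called in these comparisons. The median change of the list was -0.15 in WT cells and -0.01 between fractions, beside -0.16 and -0.06 over all genes tested. Crem, a CREB-family factor whose ICER forms repress cAMP-responsive genes, rose by 1.30 with dDAVP (adjusted p 0.0013) and by 0.76 in GFP-positive cells (adjusted p 0.000158). Avpr2, the V2 receptor, rose by 0.57 (adjusted p 0.00722, lost in 2 of 15 alternatives with adjusted p up to 0.12) and 1.16 (adjusted p 5.03e-09). Prkacb, a catalytic subunit of PKA, fell by 0.57 with dDAVP (adjusted p 0.0473), a call lost in 11 of 15 alternatives (adjusted p up to 0.174). Rapgef3, the cAMP-regulated exchange factor Epac1, rose by 0.78 in GFP-positive cells (adjusted p 0.00603). That call was lost in 2 of 31 alternatives (adjusted p up to 0.268). The Crem call between fractions was lost in 1 of 31 (adjusted p up to 0.0836).

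Of 21 A-kinase anchors and phosphodiesterase partners, 14 were tested in each comparison, and in each 2 rose and 3 fell, again beside 8.88% and 35.3% of all genes called. The list's median change was -0.32 in WT cells and -0.02 between fractions. Arrb2, a beta-arrestin that brings PDE4 to activated receptors, fell by 0.88 with dDAVP (adjusted p 0.0109, lost in 3 of 15 alternatives, among them leaving out replicate 3 of WT without dDAVP, with adjusted p up to 0.0612) and by 0.91 in GFP-positive cells (adjusted p 0.000121). Akap12, an anchor of PKA, rose by 0.54 with dDAVP (adjusted p 0.0362, lost in 10 of 15 alternatives with adjusted p up to 0.196) and by 0.69 in GFP-positive cells (adjusted p 0.000877). Pde4dip, or myomegalin, which binds PDE4D, fell by 0.62 with dDAVP (adjusted p 0.0256, lost in 8 of 15 alternatives with adjusted p up to 0.170). Lrba, a vesicle protein that anchors PKA, rose by 0.55 in GFP-positive cells (adjusted p 0.00299), while its value with dDAVP in WT cells was -0.62 (adjusted p 0.0761), which did not pass. Between fractions the Lrba call was lost in 3 of 31 alternatives (adjusted p up to 0.12). Those of Arrb2 and Akap12 were each lost in 1 of 31 (adjusted p up to 0.0536 and 0.078).

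**Figure D5:**
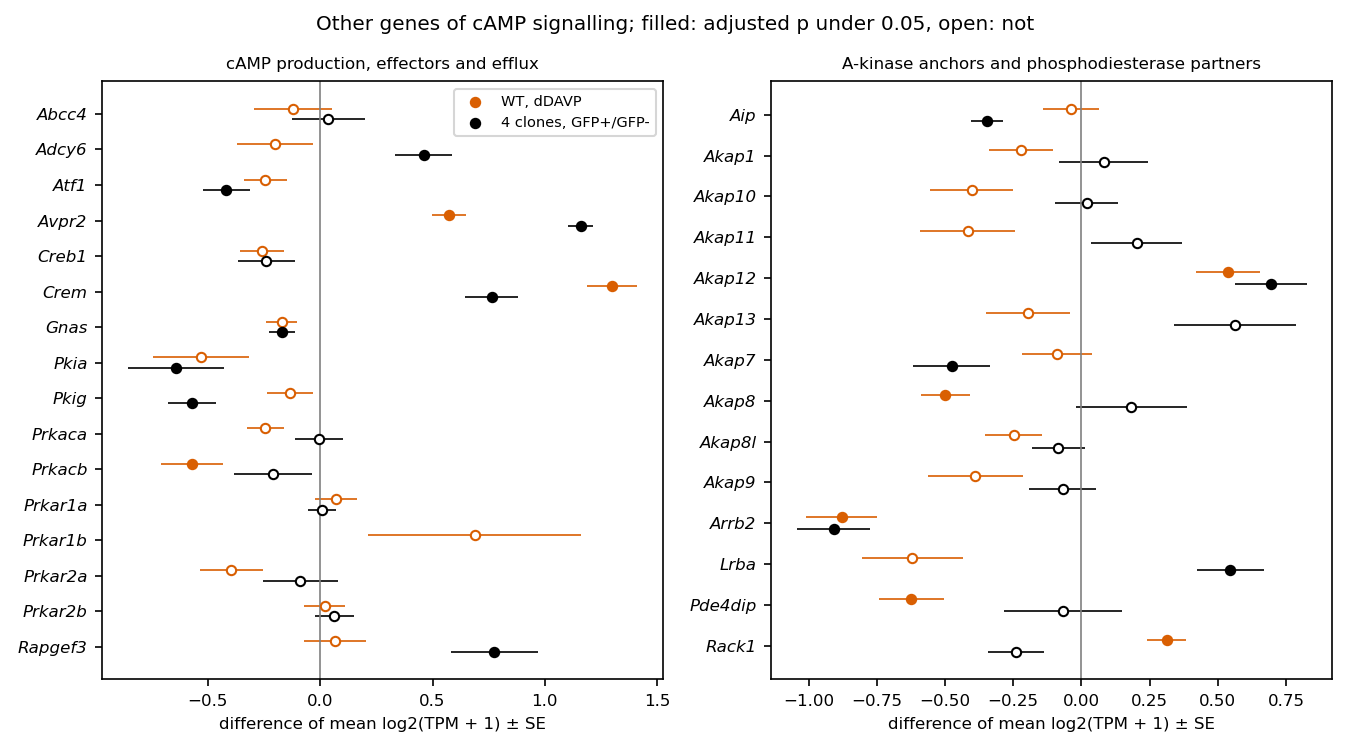
Difference of mean log2(TPM + 1) with its limma standard error (horizontal axis) for the tested genes of 2 lists, in WT cells with against without dDAVP (orange) and between GFP fractions over the 4 clones (black); filled points had an adjusted p under 0.05. Crem (1.30) and Avpr2 (1.16) lie farthest to the right, and Arrb2 lies near -0.9 in both comparisons (-0.88 and -0.91).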

How the data were processed

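Total RNA of 22 libraries was made into cDNA with the SMART-Seq HT kit and Nextera XT and sequenced in paired 50-base reads, per the labels' protocols. These kits do not mark strand, so reads of overlapping antisense genes cannot be told apart. STAR and RSEM are named in the submitters' processing notes, and their versions, the genome build and the annotation are not given in the sources used here. The authors deposited TPM per gene and library, scaled to the same total in each library. Lines sharing a symbol were summed, leaving 54514 entries, and 0 pairs of replicates were identical.

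Tests used limma 3.58.1 in R 4.3.3 on log2(TPM + 1), a pseudocount of 1, with genes at a mean of at least 1 TPM, a mean-variance trend, two-sided p-values and Benjamini-Hochberg adjustment over all genes. A gene is called where its adjusted p is under 0.05. The script recovered known changes in simulated data. The 6 WT libraries and the 16 clone libraries were fitted separately, the latter with the clone as a covariate or with a mean per clone and fraction.

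Members and lists were chosen with earlier results of these data known. Named beside the members were Aqp2, from each list up to 3 called genes with the largest change per comparison, and the 3 genes most like each member, of which 1 is not reported here. Pde5a was named after its value was seen. Antisense genes overlap exons of Pde7a (Gm16093, 0 to 1.13 TPM) and Pde3a (Gm28523, 0 to 0.33 TPM) in GENCODE M21. Libraries with more or fewer genes detected were also analysed apart, a choice made after seeing the data. Other alternatives were scaling, filters, pseudocount, moderation, covariates, the replicate block and leaving out libraries or clones.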

Additional observations from a re-analysis of the deposited data

Results flagged for a closer look

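Aqp2, the water channel the reporter is tied to, differed between GFP fractions by an amount that was not the same in each clone (limma interaction F-test, adjusted p 2.155e-06). Its GFP-positive mean was 29.0 times the negative one in C1, 12.04 times in C11, 4.28 times in C43 and 3.74 times in C50. Among 20 members, marker and pathway genes examined for this interaction it was the single one past the threshold. The same values for Pde4b, in that order, were 2.07, 1.33, 1.60 and 2.28 (interaction adjusted p 0.164).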

How the results depend on the processing

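Over 15 alternatives the Pde4b change with dDAVP stayed called, at 2.30 to 2.61 (limma adjusted p 8.62e-05 to 0.02), and the Pde4b, Pde4c and Pde7a differences between clones stayed called in all 23. The Pde4b, Pde4a and Pde4c differences between fractions stayed called in 30 of 31, all but the libraries with fewer genes detected. In WT cells 2 members were called, and 1 with all genes above 0 TPM, with no mean-variance trend, in the libraries with more genes detected, and without any single library (1 in each of the 6). With the replicate block 1 was called in WT cells, while 4 of 5 members were called between fractions with and without the block. With clone means as replicates 3 were called between fractions, and 3 with all genes above 0 TPM. With and without the block, 6 of 20 combinations were called within clones and 0 members for the interaction. Same-numbered libraries shared little beyond the number, with correlations of -0.208, -0.0254 and -0.109 in WT cells and 0.0544, 0.0151, 0.203 and 0.0825 in C1, C11, C43 and C50. In the libraries with fewer genes detected 0 of 5 were called between fractions, with changes of 0.61 to 1.27. Each of the detection sets holds both fractions of only 3 clones. Within clones 6 combinations were called, 10 with median-ratio scaling and 11 with quantile normalization, beside 7608, 7877 and 8566 calls over all genes and clones. Leaving out a single library leaves 1 library in its group, and could change the counts within clones and for the interaction. Signs turned for Pde7a with dDAVP under median-ratio scaling (0.061), for Pde6d there as well (0.029), for Pde7a in C11 under median-ratio scaling (0.10), quantile normalization (0.032), the genes-detected covariate (0.011) and when single libraries were left out (-0.175 to 0.076), and for Pde4d in C43 when single libraries were left out (-0.056 to 0.292); none of these was called, and the cause was not tested. The share of calls that were higher with dDAVP was 26.7% as deposited and 59.5% with median-ratio scaling, and 34.2% and 51.0% between fractions. Called genes with dDAVP numbered 1198, and 122 with the replicate block, 442 with all genes above 0 TPM, 691 with no trend, 756 with median-ratio scaling, 2694 with the genes-detected covariate, 101 in the libraries with more genes detected and 314 to 2038 without single libraries. Between fractions they numbered 4626, and 2406 with clone means as replicates and 250 in the libraries with fewer genes detected. For the interaction they numbered 114, and 11 with the replicate block, 234 with quantile normalization and 42 to 5038 without single libraries, and for differences between clones 4143, and 7947 without GFP-negative replicate 2 of C50. TPM keep no depth, so the precision of low members such as Pde10a is unknown.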
